A study of Mus musculus with 24 samples.

Results

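The lipid-associated macrophage genes are 10 genes, Trem2, Gpnmb, Lgals3, Mmp12, Itgax, Atp6v0d2, Cd9, Spp1, Fabp5 and Lipa, that name a macrophage state described in adipose tissue. Rows were taken by gene symbol from the 8 deposited comparison tables, and all 10 were found among the 56895 entries of every table. The set was chosen by gene name after the higher values of Itgax, Mmp12 and Lgals3 under a high fat diet in males were known from these same libraries, so the log2 values of the male diet comparisons are given below as a description and support nothing by themselves. RNA-seq was done on whole retroperitoneal adipose tissue of C57BL/6JRJ mice, 24 libraries in 8 groups of 3, with 13346779 to 18484346 counted reads per library. Mothers received an AIN-93G diet with 1.0 IU/g of vitamin D3 (CTRL) or with 0.0 IU/g (VDD) for at least 8 weeks before mating and through gestation, and all of them were fed the control diet from birth to weaning. Their male and female offspring, all of 1 genotype, were put at 6 weeks of age on a low fat diet (LF, AIN-93M) or a high fat diet (HF, 45% of energy from fat) for 8 weeks, which gives CTRL LF, CTRL HF, VDD LF and VDD HF groups in each sex. Litters are not named in the labels, and nothing says that littermates were kept apart, so the spread measured is that between these samples. In whole tissue, more cells of a type and more RNA per cell cannot be told apart.

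Lipid-associated macrophages gather around dying, lipid-laden adipocytes in expanding fat. Trem2 encodes a lipid-sensing surface receptor that signals through the adaptor Tyrobp, and the program downstream of it covers lipid uptake, binding and lysosomal breakdown. Among the members, Itgax (the integrin CD11c), Gpnmb (a transmembrane glycoprotein of lysosome-rich cells) and Cd9 (a tetraspanin) sit on membranes, Lgals3 (a galectin), Mmp12 (macrophage elastase) and Spp1 (osteopontin) are secreted, and Fabp5 (a fatty acid carrier), Lipa (lysosomal acid lipase) and Atp6v0d2 (a subunit of the vacuolar proton pump) handle lipid and acidify the lysosome. Several are also used by other cells: Spp1 is abundant in kidney tubules and Cd9 and Fabp5 are present in many cell types.

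Promoter sequence was available for 8 of the 10 members from RefSeq (build GRCm38.p6, the same assembly as mm10), as the 250 bases before each annotated start and 10 windows in all. No window was held for Atp6v0d2 or Fabp5. The windows of Trem2, Itgax, Mmp12 (its upstream start) and Gpnmb are shown as examples. Trem2 is at chr17:48346151-48346400, Itgax at chr7:128129300-128129549, Mmp12 at chr9:7344147-7344396 and Gpnmb at chr6:49036268-49036517, each on the plus strand, 5′ to 3′, with capitals marking matches to the AP-1 letters TGANTCA or the PU.1 letters GAGGAA on either strand.
Trem2: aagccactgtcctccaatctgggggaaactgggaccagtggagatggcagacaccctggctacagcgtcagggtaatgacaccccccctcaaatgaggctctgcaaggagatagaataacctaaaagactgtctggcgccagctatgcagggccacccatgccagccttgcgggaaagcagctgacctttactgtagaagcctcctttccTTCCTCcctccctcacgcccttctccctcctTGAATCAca
Itgax: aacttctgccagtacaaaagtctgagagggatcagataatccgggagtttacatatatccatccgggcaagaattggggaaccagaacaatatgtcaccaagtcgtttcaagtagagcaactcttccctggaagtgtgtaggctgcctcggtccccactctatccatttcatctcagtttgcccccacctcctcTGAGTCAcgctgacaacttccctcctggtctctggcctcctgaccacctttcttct
Mmp12: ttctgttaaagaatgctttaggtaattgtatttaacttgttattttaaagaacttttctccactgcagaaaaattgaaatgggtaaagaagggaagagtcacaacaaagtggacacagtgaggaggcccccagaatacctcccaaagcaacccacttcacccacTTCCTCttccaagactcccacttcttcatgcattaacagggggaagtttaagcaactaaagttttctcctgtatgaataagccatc
Gpnmb: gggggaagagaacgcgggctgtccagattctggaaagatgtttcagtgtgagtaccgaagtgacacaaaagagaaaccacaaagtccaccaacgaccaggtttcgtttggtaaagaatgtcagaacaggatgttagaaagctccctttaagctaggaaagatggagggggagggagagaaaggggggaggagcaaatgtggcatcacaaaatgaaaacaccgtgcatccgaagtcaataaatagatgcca

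AP-1 letters were in 3 of the 10 windows, those of Trem2, Itgax and the downstream start of Mmp12, and in 6.75% of 32851 promoters of the same length. The match began 9 bases before the Trem2 start and 56 bases before the Itgax start. PU.1 letters, those of a factor that defines myeloid cells, were in 4 windows, of Trem2, Mmp12, Spp1 and Lipa, against 23.3% of all promoters. The E-box letters CACGTG, read by lysosomal regulators of the Mitf and Tfeb family, were in 0 of the 10 windows, against 6.02% of all promoters. No 2 matches overlapped in a window, and Gpnmb held no match. These are letter matches in short windows and describe no binding.

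All 10 members have gene models on GRCm38, among them Trem2 on chromosome 17 from 48346401 to 48354147, Mmp12 on chromosome 9 from 7344381 to 7369499, Itgax on chromosome 7 from 128129547 to 128150657 and Gpnmb on chromosome 6 from 49036546 to 49070929, all on the plus strand, and Atp6v0d2 on chromosome 4 from 19876841 to 19922605 on the minus strand. Per kilobase of exon, the median level over the 24 libraries was highest for Fabp5 (984 scaled reads per kb), followed by Lgals3 (683), Cd9 (331) and Lipa (206). Spp1 (52.6) and Gpnmb (32.9) were intermediate, and Atp6v0d2 (11.2), Trem2 (10.2), Itgax (9.83) and Mmp12 (3.32) were lowest. Scaled reads are whole reads recovered from the deposited log2 values and divided by 1 size factor per library over all 24 libraries. Mmp12 had the widest range, from 2.39 scaled reads (3 reads) in VDD LF female 2312 to 1089.7 (1284 reads) in VDD HF male 2307, and Lipa the narrowest, from 904 to 2326. For Gpnmb, Lgals3, Mmp12, Itgax and Atp6v0d2 the highest library was the same one, VDD HF male 2307.

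Some libraries held genes of other tissues, and mouse numbers are those of the table columns. VDD LF female 2303 had kidney genes, with Umod (uromodulin) at 1937 scaled reads against at most 4.47 in any other library. Its sum over 7 kidney genes was 9299 against at most 414 elsewhere. The same library had skeletal muscle RNA, with a sum over 6 genes of 125200 against at most 305 in the rest of its group. VDD HF female 2081 had Cd3d, a T-cell receptor chain, at 222 scaled reads against at most 70.5 elsewhere, and also the highest macrophage level among females (sum over 7 macrophage genes 22637, other females at most 14701). Acta1 of skeletal muscle reached 181274 in VDD LF male 2310, 44073 in VDD HF male 2298 and 54003 in VDD HF male 2307. VDD LF male 2310 also had a sum over 5 mesothelium genes of 10714, against at most 929 in the rest of its group. Of the members, Spp1 and Fabp5 were highest in 2303, while Itgax, Mmp12 and Lgals3 of the females were highest in 2081. The column names of 6 libraries (2287, 2131, 2302, 2307, 2124 and 2312) contain the term renal, which no label or method explains, and 2303 is not among them. These libraries lie in every male group and in the CTRL LF and VDD LF female groups, but in no HF female group. The HF males among them, 2131 and 2307, were the highest of their groups for Mmp12, Gpnmb, Itgax and Atp6v0d2. Some results that rest on these libraries are given with and without them, and their part in the other results was not tested. The VDD male diet comparison is given without 2310, but its single members are not given without 2298 or 2307. The adipocyte gene Adipoq was high in every library (44740.0 to 109716 scaled reads). In 2310, however, the sum over 6 skeletal muscle genes (837836) was above every sum over 8 adipocyte genes in its group (at most 492885). In 2307 the muscle sum was 297095, against adipocyte sums of at most 253520 in its group. The macrophage markers Adgre1 and Cd68 were above 0 in all 24, and the milk genes Wap and Csn2 were at 0 in all 24.

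**Figure D1:**
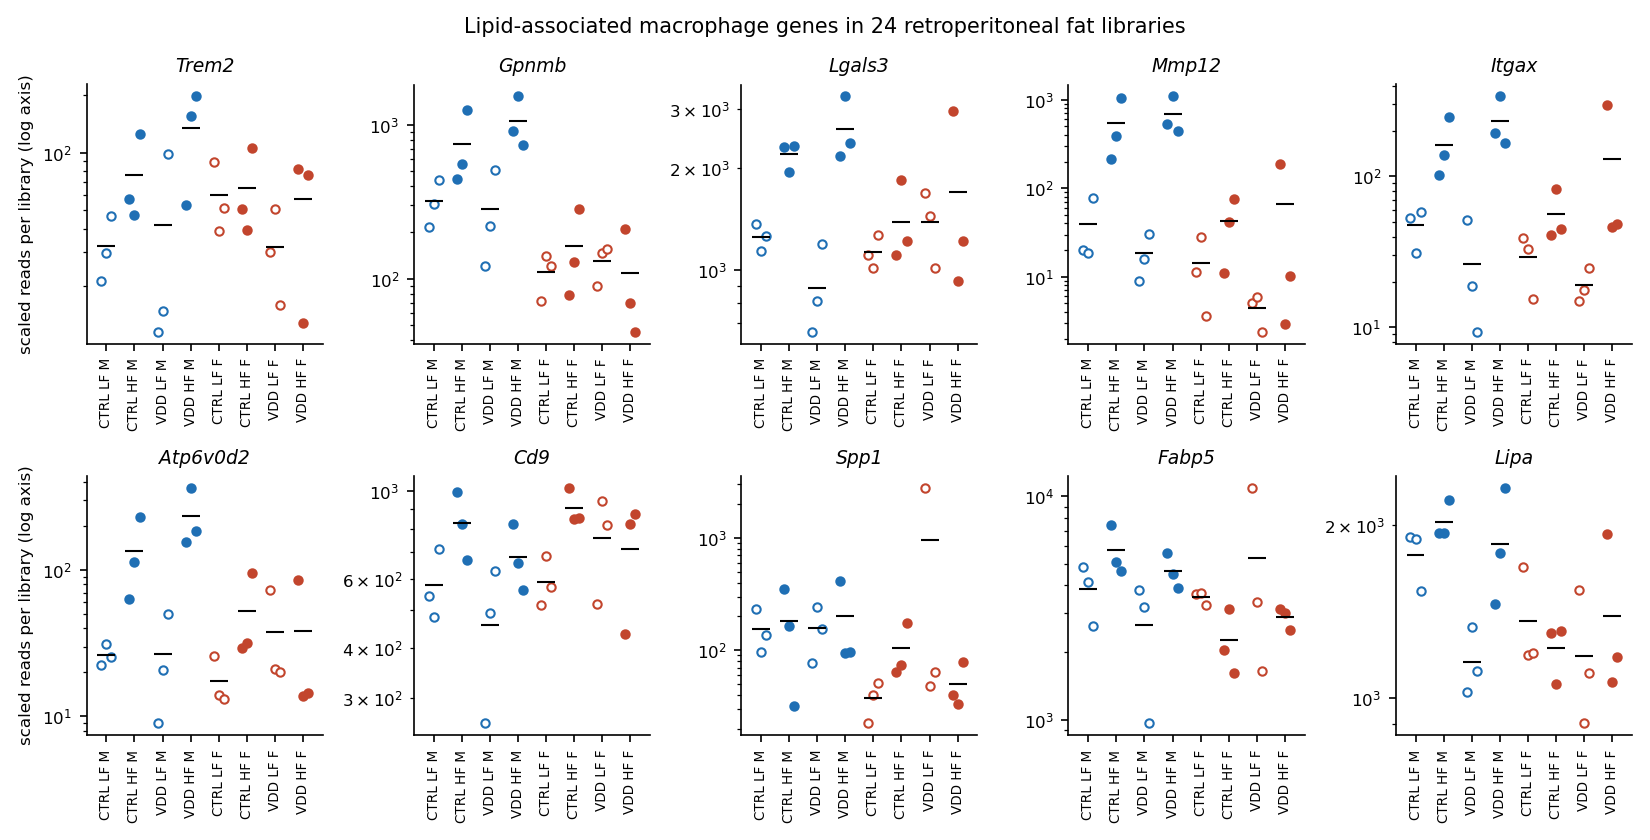
Scaled reads (log axis) of the 10 members in each of 24 libraries, by group, with males (M) in blue, females (F) in red, filled points for HF, open points for LF and a black line for the mean of 3. Mmp12, Gpnmb, Itgax and Atp6v0d2 had their 2 highest group means in CTRL HF and VDD HF males, and the single high point of Spp1 is VDD LF female 2303 (2783 scaled reads).

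By group mean, Mmp12 was highest in VDD HF males (687 scaled reads) and CTRL HF males (546), which overlapped each other and lay above every library of the next group, VDD HF females (66.1). Below them the order was CTRL HF females (42.2), CTRL LF males (39.0), VDD LF males (18.4), CTRL LF females (14.2) and VDD LF females (4.42), and each neighbouring pair overlapped. Gpnmb had the same first pair, at 1056 and 745. They lay above every library of the third group, CTRL LF males (320.4), although only just (441 against 437 at the edge). They did not clear the fourth group, VDD LF males (282), where 2310 had 507, above CTRL HF male 2127 at 441. The means of its 4 female groups (109 to 164) were all below those of the 4 male groups (282 and more). Itgax and Atp6v0d2 had the same first pair too, but every pair of neighbours in their order overlapped.

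The first question was how the HF diet related to these genes in males of CTRL mothers. Mmp12 was the member with the largest difference, with 20.3, 18.7 and 78.2 scaled reads in the 3 CTRL LF males and 216, 390.4 and 1033 in the 3 CTRL HF males, a log2 fold change (HF minus LF, on the scale of log2 of normalized reads plus 1) of 3.78 (SE 0.63). Itgax had 52.9, 31.2 and 58.2 under LF and 102, 139 and 247 under HF, a log2 fold change of 1.69 (SE 0.37). Atp6v0d2 had 22.5, 31.2 and 25.5 under LF and 63.8, 114 and 229.6 under HF, a log2 fold change of 2.13 (SE 0.43). In all 3 genes every HF library was above every LF library, and CTRL HF male 2131 was the highest. Trem2 had 21.4, 29.9 and 46.4 against 57.1, 47.1 and 125, Gpnmb had 217, 307 and 437 against 441, 552 and 1243, and Lgals3 had 1365, 1137 and 1265 against 2313, 1957 and 2338. Their log2 fold changes were 1.13 (SE 0.42), 1.11 (SE 0.38) and 0.80 (SE 0.16), again with no overlap, although the lowest HF library of Trem2 and of Gpnmb lay just above the highest LF library. Spp1 gave no clear direction, with 233, 96.0 and 135 under LF and 349, 164 and 32.2 under HF, so that the HF values spanned the whole LF range (log2 fold change -0.24, SE 0.72), and leaving out 1 library at a time moved its log2 fold change from -0.99 to 0.71. Cd9, Fabp5 and Lipa had log2 fold changes of 0.51 (SE 0.21), 0.57 (SE 0.28) and 0.18 (SE 0.17). In all, 9 of the 10 members had a positive log2 fold change, their median log2 fold change was 0.96 against -0.022 over all genes, and 7 (Atp6v0d2, Gpnmb, Itgax, Lgals3, Lipa, Mmp12 and Trem2) had HF values that did not overlap the LF values, which 13.0% of the 15583 genes tested showed. By limma or limma-voom no member passed the calling rule (Benjamini-Hochberg adjusted p under 0.01 and fold change above 1.5 or below 0.66), which 0.0578% of all genes passed. The paper, with its own test, reported more differentially expressed genes than limma called in this and every other diet comparison. Before adjustment 7 members were under 0.05 by limma, as were 2924 of the 15583 genes tested. Without 2287 and 2131, the libraries of this comparison with renal in their column names, each group had 1 library fewer. Mmp12 was then called (log2 fold change 2.87), against 0.746% of all genes in that fit. Gpnmb went to 0.42, Trem2 to 0.46, Atp6v0d2 to 1.55 and Spp1 to 1.05.

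In males of VDD mothers Mmp12, Itgax and Atp6v0d2 again had the largest log2 fold changes. Mmp12 had 8.97, 15.8 and 30.4 scaled reads in the 3 VDD LF males and 531, 1089.7 and 440.4 in the 3 VDD HF males, a log2 fold change of 5.19 (SE 0.52). Itgax had 51.2, 18.8 and 9.36 and 194, 339 and 165, a log2 fold change of 3.33 (SE 0.62). Atp6v0d2 had 8.97, 20.8 and 50.3 and 155, 365 and 185, a log2 fold change of 3.30 (SE 0.64). All 3 genes were far apart between the diets, with each HF library above each LF library. Gpnmb had 122, 219 and 507 under LF and 906, 1528 and 734 under HF (log2 fold change 2.07, SE 0.54), and Lgals3 had 657, 813 and 1193 and 2174, 3269.9 and 2383 (1.58, SE 0.26). Trem2 had 11.5, 14.9 and 98.3 and 53.3, 155 and 197 (2.14, SE 0.89), and here the groups overlapped, because VDD LF male 2310 was above VDD HF male 2298. Of the LF libraries, 2310 was also the highest for Gpnmb, Mmp12, Lgals3 and Atp6v0d2, and it was the library with the most skeletal muscle RNA and the highest macrophage sum of its group (16251, others 5724 and 5959). Lipa and Fabp5 had log2 fold changes of 0.67 (SE 0.20) and 1.01 (SE 0.52), Cd9 of 0.64 (SE 0.34), and Spp1, with 76.9, 242 and 154 against 415, 95.0 and 96.9, of 0.14 (SE 0.69). All 10 members were higher under HF by group mean of the log2 values, with a median log2 fold change of 1.82 against 0.011 over all genes. The groups did not overlap for 7 members (Atp6v0d2, Fabp5, Gpnmb, Itgax, Lgals3, Lipa and Mmp12), against 17.0% of 15965 genes tested. No member was called by limma or limma-voom, against 0.0752% of all genes. Before adjustment 6 were under 0.05 by limma, as were 4138 of the 15965 genes tested. The count of calls depended on the fit: without VDD LF male 2310 Mmp12 and Lgals3 were called (all genes 1.70%), with no filter on low values or a pseudocount of 10 Mmp12 was called (all genes 0.122% and 0.294%), and in 1 fit over all 24 libraries Mmp12, Itgax, Lgals3 and Atp6v0d2 were called (all genes 4.69%). Without 2310 Fabp5 went to 0.39.

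In females of CTRL mothers 4 members had HF values wholly above the LF values and 1, Fabp5, had them wholly below. Cd9 had 514, 685 and 572 scaled reads in CTRL LF females and 1018, 849 and 854 in CTRL HF females, a log2 fold change of 0.60 (SE 0.14). Spp1 had 22.4, 39.8 and 51.2 and 64.3, 73.8 and 176, a log2 fold change of 1.35 (SE 0.45). Fabp5 went the other way, with 3659, 3683 and 3254 under LF and 2049, 3129 and 1621 under HF (-0.71, SE 0.23). These 3 genes had groups that did not overlap. Itgax had 39.3, 32.8 and 15.5 and 41.0, 82.4 and 44.7 (0.93, SE 0.43), and Atp6v0d2 had 25.7, 13.9 and 13.1 and 29.4, 31.6 and 96.1 (1.35, SE 0.51), also without overlap. Mmp12, at 11.2, 27.8 and 3.57 under LF, was at 10.9, 41.2 and 74.6 under HF (1.51, SE 0.85), and the groups overlapped. Log2 fold changes were 0.06 (SE 0.43) for Trem2, 0.39 (SE 0.47) for Gpnmb, 0.24 (SE 0.20) for Lgals3 and -0.16 (SE 0.17) for Lipa. The 4 members without overlap and higher under HF (Atp6v0d2, Cd9, Itgax and Spp1) stand beside 16.9% of the 16563 genes tested that did the same. The median over the members was 0.50, against 0.012 over all genes. No member was called by limma or limma-voom, as for all genes (0%), and the lowest adjusted p was 0.0468, of Cd9. Before adjustment 4 members were under 0.05 by limma, as were 4762 of the 16563 genes tested.

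In females of VDD mothers single libraries set most values. Itgax had 15.0, 17.6 and 24.7 scaled reads under LF and 297, 46.1 and 48.4 under HF, a log2 fold change of 2.16 (SE 0.73), and it was the only member whose groups did not overlap, against 5.55% of 15923 genes. The first HF value is that of 2081, and without that library the log2 fold change was 1.28. Mmp12 had 5.01, 5.86 and 2.39 and 185, 2.94 and 10.3, too few reads to enter the fit of this table, and its high value is again 2081. Spp1 had 2783, 48.1 and 64.7 under LF and 39.8, 33.3 and 78.2 under HF, a log2 fold change of -2.11 (SE 1.46), which without 2303, the library with kidney genes, was -0.23. Fabp5 had 10926, 3363 and 1659 and 3134, 3002 and 2518 (-0.45, SE 0.62), and without 2303 the sign turned to 0.29. For Lgals3 the LF values were 1690.1, 1449.7 and 1016 and the HF values 2949, 929.5 and 1218 (0.14, SE 0.43, and -0.35 without 2081). Gpnmb (-0.54, SE 0.56), Atp6v0d2 (-0.26, SE 0.83), Trem2 (0.57, SE 0.77), Cd9 (-0.12, SE 0.33) and Lipa (0.22, SE 0.29) differed by less than 1 SE in either direction, but without 2081 Gpnmb was at -1.17, Atp6v0d2 at -1.11, Trem2 at 0.11 and Cd9 at 0.20, and without 2303 Atp6v0d2 was at 0.33, Cd9 at -0.37 and Lipa at 0.43. Of the 9 members tested 4 had a positive and 5 a negative log2 fold change, with a median of -0.12 against -0.007 over all genes. No member was called by limma or limma-voom (all genes 0%). Before adjustment 1 member was under 0.05 by limma, as were 804 of the 15923 genes tested.

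**Figure D2:**
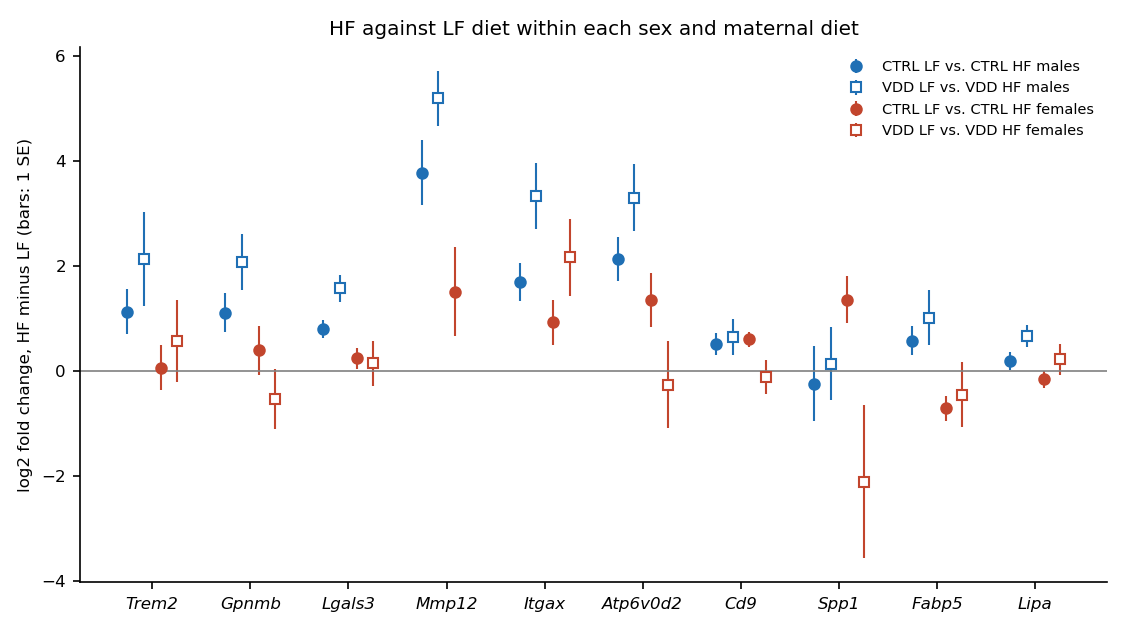
Log2 fold change (HF minus LF) of each member in the 4 diet comparisons, with bars of 1 SE from limma on 3 against 3 libraries. In males the points of Mmp12, Itgax and Atp6v0d2 lie at 1.69 to 5.19, Spp1 sits near 0, and Mmp12 has no point in VDD females because it did not pass the filter there.

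The next question was whether the sexes differed on the same diet, with CTRL and VDD groups averaged in 1 limma fit over all 24 libraries. The diet comparisons had not used this contrast, but the HF males enter both, and high male values of Itgax, Mmp12 and Lgals3 were known when the genes were chosen. Gpnmb had 441 to 1528 (median 820.0, n = 6) in HF males and 45.3 to 283 (median 104, n = 6) in HF females, so the sexes did not overlap. Its log2 fold change (females minus males) was -2.87 (SE 0.41), with an adjusted p of 0.00024 (limma, Benjamini-Hochberg over 18399 genes). Mmp12 ranged over 216 to 1089.7 (median 486, n = 6) in males and 2.94 to 185 (median 26.1, n = 6) in females, again without overlap, and was lower in females (-4.35, SE 0.74, adjusted p = 0.000978). Atp6v0d2 had 63.8 to 365 (median 170.2, n = 6) in males and 13.7 to 96.1 (median 30.5, n = 6) in females, which overlapped, and was lower in females (-2.21, SE 0.50, adjusted p = 0.00855). Atp6v0d2 was close to the threshold: it lost the call when any of 9 single HF libraries was left out (adjusted p up to 0.0277). These 3 were the members called, all lower in females, against 1.98% of all genes called in that direction and 3.49% in either. Lgals3 (-0.74, SE 0.22), Itgax (-1.41, SE 0.44) and Lipa (-0.59, SE 0.16) had adjusted p values of 0.0406, 0.0472 and 0.024, short of 0.01. Fabp5, with 3889 to 7482 (median 4856, n = 6) in males and 1621 to 3134 (median 2760.1, n = 6) in females, was the third member whose sexes did not overlap (-1.02, SE 0.36, adjusted p = 0.0749), and lack of overlap between 6 and 6 libraries was seen for 3.86% of all genes. Trem2 (-0.82, SE 0.54), Spp1 (-1.05, SE 0.78) and Cd9 (0.08, SE 0.21) overlapped widely. Over the 10 members the median was -1.03, against 0.025 over all genes.

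Single libraries moved this count in both directions. Without VDD HF female 2081, Itgax (-1.85), Lgals3 (-0.98) and Lipa (-0.72) were called too, which made 6 members, against 2.61% of all genes in that direction. Without the 3 male libraries with the most skeletal muscle RNA (2310, 2298 and 2307) only Gpnmb was called (log2 fold change -2.64, all genes 0.958% in that direction), and without the 6 libraries named renal none was (all genes 0.548%), with Gpnmb at -2.50, Mmp12 at -3.85 and Atp6v0d2 at -1.79. The HF libraries named renal, 2131 and 2307, are male and the highest of their groups for these 3 genes. No HF female library is named renal, so under HF that fit left out males only. The direction of Gpnmb, Mmp12 and Atp6v0d2 was the same in each of those fits.

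On the LF diet no member was called between the sexes by limma or limma-voom, against 2.23% of all genes. Before adjustment 2 were under 0.05 by limma, as were 3874 of the 18399 genes tested. Gpnmb had 122 to 507 (median 263, n = 6) in LF males and 71.4 to 156 (median 131, n = 6) in LF females (-1.21, SE 0.41, adjusted p = 0.085). Mmp12 had 8.97 to 78.2 (median 19.5, n = 6) and 2.39 to 27.8 (median 5.44, n = 6) (-1.60, SE 0.74, adjusted p = 0.223). Spp1 was at -0.72 (SE 0.78), and without the kidney-gene library 2303 at -1.66 (adjusted p = 0.0787). For Trem2 (0.49, SE 0.54), Lgals3 (0.25, SE 0.22), Cd9 (0.41, SE 0.21) and Fabp5 (0.35, SE 0.36) the log2 fold changes were positive, and Atp6v0d2 was at -0.04 (SE 0.50). Fabp5 is highest in 2303, and without that library it was at -0.014, while Trem2 was at 0.96 without 2310 and Spp1 at 0.22 without the libraries named renal. No member had sexes that did not overlap under LF, against 3.25% of all genes.

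**Figure D3:**
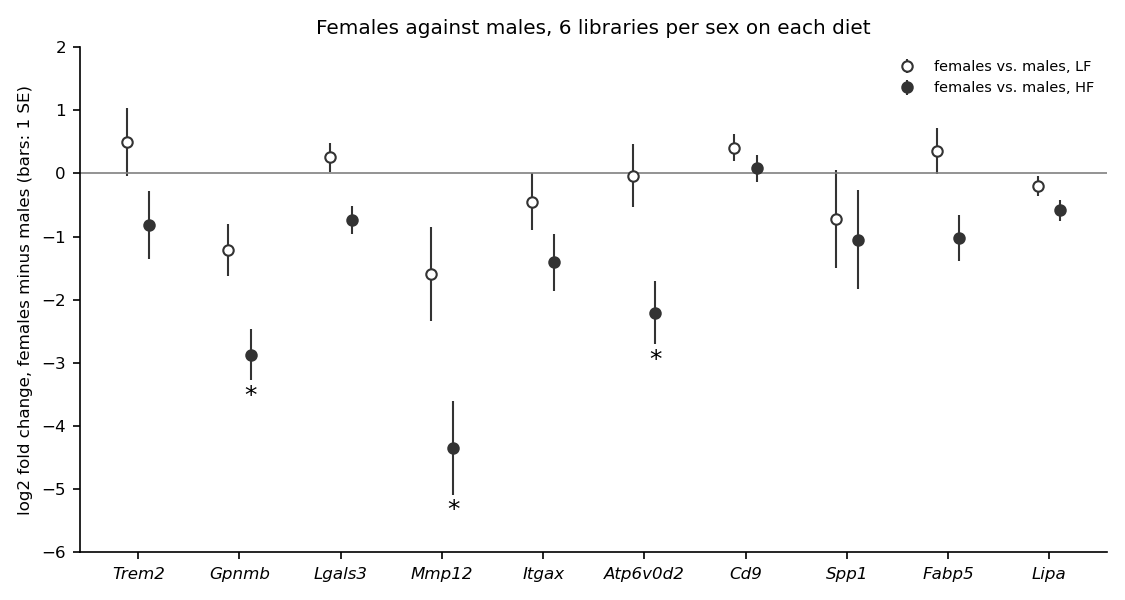
Log2 fold change (females minus males) of each member on the LF diet (open points) and the HF diet (filled points), with bars of 1 SE from limma on 6 libraries per sex, and an asterisk for members called. Under HF 9 of the 10 points lie below 0, and the asterisks mark Gpnmb (-2.87), Mmp12 (-4.35) and Atp6v0d2 (-2.21).

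Whether the diet difference itself was unlike in the sexes was tested by the interaction of sex and offspring diet. All 10 members had a negative estimate (a smaller HF minus LF difference in females), with a median of -1.15 against 0.006 over all genes. The male diet difference enters this contrast, and high male HF values of Itgax, Mmp12 and Lgals3 were known when the genes were chosen. The signs and the median are therefore a description and support nothing by themselves. The largest were Mmp12 (-2.75, SE 1.05), Atp6v0d2 (-2.17, SE 0.71) and Gpnmb (-1.66, SE 0.58), and Lgals3 had -0.99 (SE 0.32). No member was called by limma or limma-voom: the adjusted p values ran from 0.359 to 0.966, and 0.0272% of all genes were called. Before adjustment 5 members were under 0.05 by limma, as were 1642 of the 18399 genes tested. The sign of Spp1 (-0.32, SE 1.10) depended on library 2303, without which it was 0.61. An effect of HF diet on these genes that differs between males and females was not detectable at the threshold used with 3 mice per group.

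Maternal diet was compared within each sex and offspring diet. In LF males all 10 members had a negative log2 fold change (VDD minus CTRL), that is a lower mean of log2 values in VDD offspring, with a median of -0.46 against 0.012 over all genes. Lipa had 1912, 1892 and 1535 in CTRL and 1024, 1329 and 1115 in VDD offspring (-0.61, SE 0.17), the only member without overlap, against 13.4% of 15438 genes. Itgax (-1.07, SE 0.62) and Mmp12 (-0.87, SE 0.68) had larger differences with larger errors. Trem2, Spp1 and Atp6v0d2 had mean scaled reads that were higher in VDD offspring (41.6 against 32.6 for Trem2), and without VDD LF male 2310 Trem2 was at -1.17, Gpnmb at -0.90, Itgax at -0.53 and Fabp5 at -0.086. In the same comparison the 7 macrophage genes were all negative too (median -0.61), as were the 5 resident macrophage genes (-0.71) and 6 of 7 lymphocyte genes (-1.53), while 6 of 6 skeletal muscle genes were positive (3.49), with 0 called, and their part was not tested. In HF males 7 of 10 had a positive log2 fold change (median 0.41, all genes 0.003), led by Atp6v0d2 (0.86, SE 0.49), Trem2 (0.74, SE 0.54) and Gpnmb (0.57, SE 0.41), and each of the 10 overlapped, while 10.3% of 16013 genes did not. Without VDD HF male 2307, the highest library of 5 members, the median was 0.16. In this comparison skeletal muscle genes were also higher in VDD offspring (6 of 6, median 6.17, 0 called), and their part was not tested. In LF females the median over the 9 members tested was 0.25 (all genes 0.013), and Spp1 stood at 2.50 (SE 1.42), or 0.62 without 2303, with Atp6v0d2 at 0.87 (SE 0.55), or 0.27, and Fabp5 at 0.16 (SE 0.60), or -0.58. In HF females it was -0.42 (all genes 0.001), with Spp1 at -0.98 (SE 0.49) and Itgax at 0.72 (SE 0.73), or -0.16 without 2081. Without 2081 Atp6v0d2 (-0.75), Gpnmb (-0.69) and Mmp12 (-0.73) went to -1.59, -1.31 and -2.33. In both female comparisons every member overlapped, against 18.2% of 16046 genes without overlap under LF and 22.9% of 16480 under HF. No member and no other gene was called in any of the 4 maternal comparisons by limma (0% in each), and limma-voom called no member either. The paper, which used DESeq2, reported differentially expressed genes in each of them. Only Lipa in LF males was under 0.05 before adjustment by limma, as were 1048 of 15438 genes in that comparison. The gene counts were 850 of 16013 in HF males, 1933 of 16046 in LF females and 2752 of 16480 in HF females.

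The maternal by offspring diet interaction asked whether the HF difference depended on the maternal diet. In males all 10 members had a positive estimate, from 0.12 (SE 0.43) for Cd9 to 1.63 (SE 0.89) for Itgax. The median was 0.86, against 0.025 over all genes. The male diet difference enters this contrast too, and high male HF values of Itgax, Mmp12 and Lgals3 were known when the genes were chosen. These signs and this median in males are therefore a description and support nothing by themselves. Every adjusted p was 1, no member was under 0.05 before adjustment (755 of 18399 genes were), limma-voom called no member, and limma called no gene (0%). In females 5 of 10 were positive (median 0.06), with Spp1 at -3.48 (SE 1.55) and, without 2303, at -1.61. Again limma called no gene (0%) and limma-voom no member. Before adjustment 1 member was under 0.05 by limma, as were 1171 of 18399 genes. The male interaction shares its libraries with the male comparisons above and adds no separate samples.

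Of the 7 general macrophage genes, 6 had a positive HF minus LF log2 fold change in CTRL males (median 0.50) and 6 in VDD males (1.02), where Cd14 was negative in both (-0.31 (SE 0.41) and -0.51 (SE 0.29)), and all 7 in CTRL females (0.80) and in VDD females (0.57). Adgre1, a surface marker of mature macrophages, had 502, 496 and 965 scaled reads in CTRL LF males and 859, 803 and 1294 in CTRL HF males, a log2 fold change of 0.62 (SE 0.29), and Cd68 one of 0.87 (SE 0.22). In VDD males they were at 1.56 (SE 0.54) and 1.19 (SE 0.47), and in CTRL females at 1.14 (SE 0.30) and 0.61 (SE 0.21). The sum over 7 macrophage genes ran over 10831 to 22467 in CTRL LF males, 15109 to 25035 in CTRL HF males, 5724 to 16251 in VDD LF males and 11033 to 36165 in VDD HF males. In females the same sum ran over 4929 to 7622 in CTRL LF, 11843 to 14701 in CTRL HF, 4430.0 to 8771 in VDD LF and 4933 to 22637 in VDD HF. None of the 7 genes was called in any diet comparison. Genes of other cell types also differed by median log2 fold change in CTRL and VDD males, at -0.32 and -0.24 for 8 adipocyte genes, 0.10 and 1.06 for 5 dendritic cell genes, -1.47 and -0.41 for 7 B and T lymphocyte genes, -0.45 and 1.77 for 6 skeletal muscle genes and 0.33 and 0.71 for 5 mesothelium genes, with 0 calls in each list, and their part in the values of the members was not tested. Between the sexes under HF the medians were -0.75 for the macrophage genes (6 of 7 lower in females, 0 called), -2.19 for skeletal muscle, 0.77 for lymphocytes, 1.15 for mesothelium and 2.23 for the 5 mammary epithelium genes tested (1 called, higher), and their part was not tested either.

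Each member was also expressed relative to the mean log2 level of the 7 macrophage genes in its own library, as a description. It was computed for the members only, so the median and the share without overlap over all genes are not known on this scale. On the plain scale 13.0% of all genes in CTRL males and 17.0% in VDD males were higher under HF without overlap. Relative to the macrophage genes Mmp12 was higher under HF by 3.35 in CTRL males and 4.29 in VDD males, and Atp6v0d2 by 1.70 and 2.40, each without overlap. Itgax was higher by 1.26 and 2.43, and Trem2 by 0.70 and 1.24, without overlap in CTRL males and with overlap in VDD males. Lgals3 (0.37 and 0.67) and Gpnmb (0.68 and 1.17) overlapped in both. Lipa turned negative (-0.25 and -0.24), Fabp5 was near 0 (0.14 and 0.11), and Spp1 was lower (-0.67 and -0.76). The medians over the 10 members were 0.52 in CTRL males and 0.92 in VDD males. In CTRL females the median was -0.27 and in VDD females -0.58, so relative to macrophage genes most members were lower under HF there, Fabp5 (-1.48) and Lipa (-0.93) without overlap in CTRL females. Itgax in VDD females was higher under HF by 1.57 and Gpnmb was lower (-1.13), both without overlap.

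**Figure D4:**
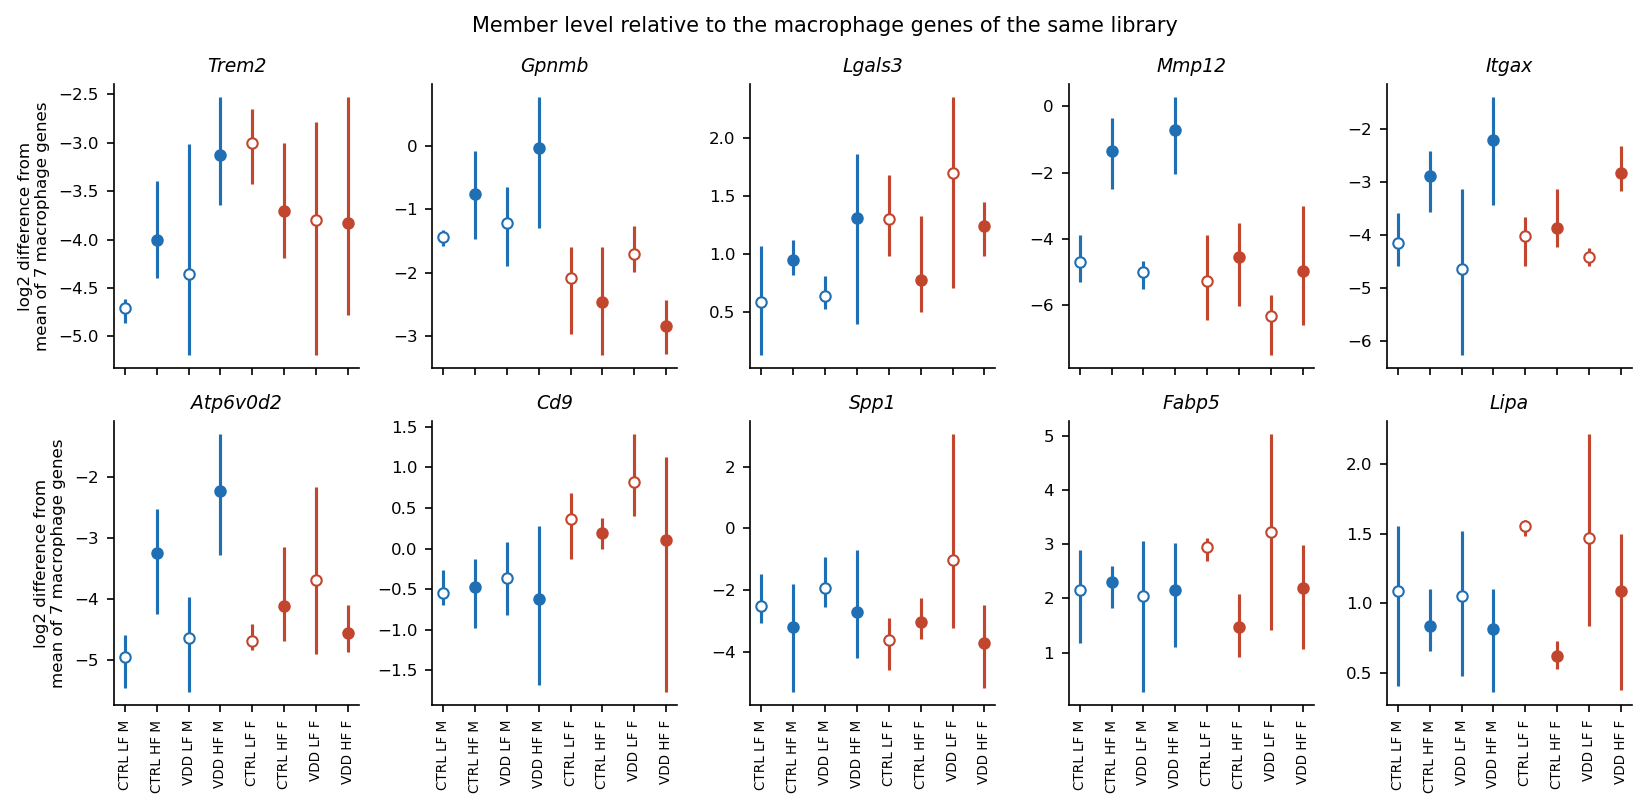
Level of each member relative to the macrophage genes of the same library (log2 difference from the mean of 7 genes), with the group mean as a point and the range of 3 libraries as a line, males blue, females red, HF filled, LF open. Mmp12 and Atp6v0d2 were higher in HF than in LF males without overlap, while Lipa in CTRL females was lower under HF without overlap.

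The wider pathway was read from 3 further lists, chosen with earlier results of these data known. Of 10 genes of Trem2 receptor signalling, 8 of 10 had a positive log2 fold change in CTRL males (median 0.28), 9 of 10 in VDD males (0.81), 9 of 10 in CTRL females (0.58) and 8 of 10 in VDD females (0.76). Tyrobp, the adaptor of Trem2, was at 0.56 (SE 0.27) and 1.16 (SE 0.39) in males, and Pilra, an inhibitory receptor of myeloid cells, at 0.80 (SE 0.52) and 1.82 (SE 0.48). In CTRL females Pilra had 1.99 to 19.2 scaled reads under LF and 28.0 to 41.2 under HF, and Tyrobp 284 to 419 and 573 to 754. In VDD females the diets overlapped for both. Syk, the kinase that the adaptor recruits, was at 0.56 (SE 0.36) in CTRL males and 0.92 (SE 0.15) in CTRL females. Of 22 lysosome genes (Cd68 is also on the macrophage list) 11 of 22 were higher in CTRL males and 15 of 22 in VDD males (medians -0.003 and 0.24), with the cathepsin genes Ctsk at 0.84 (SE 0.28) and 1.13 (SE 0.23) and Ctss at 0.82 (SE 0.28) and 1.71 (SE 0.69), and the lysosomal cholesterol transporter gene Npc1 at -0.72 (SE 0.23) and -1.54 (SE 0.14). In CTRL females 9 of 22 were higher and in VDD females 9 of 21 (medians -0.07 and -0.03). In CTRL females Ctsk had 160 to 208 scaled reads under LF and 312 to 364 under HF, and Ctss 414 to 694 and 905 to 1337. Npc1 had 1140 to 2011 and 467 to 798 there. In VDD females the diets overlapped for each of these genes. Of 11 lipid uptake and efflux genes 10 were tested in each, 4 higher in CTRL males and 4 in VDD males (medians -0.43 and -0.0077), with the cholesterol efflux gene Abcg1 at -1.01 (SE 0.22) and -0.40 (SE 0.25). Of the 10 tested in females, 3 were higher in CTRL females and 6 in VDD females (medians -0.36 and 0.06). No gene of the 3 lists was called in any of the 8 deposited comparisons.

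Between the sexes under HF, 3 of the 22 lysosome genes were called, all lower in females and named here after their values were seen, against the same background as the members. They were Ctsk (-0.90, SE 0.20, adjusted p = 0.00644), Ctsl (-0.83, SE 0.14, adjusted p = 0.00112) and Atp6v0a1, another proton pump subunit (-0.73, SE 0.11, adjusted p = 0.000363), by limma. Abcg1 and Plin2, a lipid droplet coat gene, were called lower in females on both diets, Abcg1 at -1.65 (SE 0.25) under LF and -1.11 (SE 0.25) under HF, and Plin2 at -0.74 (SE 0.16) and -0.69 (SE 0.16). No gene of Trem2 receptor signalling was called between the sexes on either diet, and none of the 7 macrophage genes. The interaction of sex and diet had a median near 0 for the macrophage genes (-0.03) and for Trem2 receptor signalling (0.17), beside -1.15 for the members. Medians far from 0 were not limited to the members. They were -1.27 for mammary epithelium, -0.94 for kidney, -0.69 for skeletal muscle and 1.66 for lymphocytes, and their part was not tested. The remaining lists lay between -0.40 (proliferation) and 0.26 (dendritic cells). The resident macrophage genes Lyve1, Timd4, Cd163, Folr2 and Mrc1 all had negative log2 fold changes in each of the 4 maternal comparisons. Their medians were -0.71 in LF males, -0.85 in HF males (Lyve1 -1.35 (SE 0.58)), -0.30 in LF females and -0.62 in HF females. In HF males 7 of the 10 members were positive, but 6 of 7 macrophage genes and 9 of 10 genes of Trem2 receptor signalling were negative. Of the members, 0 of 10 were positive in LF males, 6 of 9 in LF females and 4 of 10 in HF females. None of these genes was called. The 5 proliferation genes all had positive log2 fold changes in each of the 4 diet comparisons (medians from 1.00 in CTRL females to 1.67 in VDD males), none of them called.

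The members did not vary as 1 block across the 24 libraries. Spearman rho between Gpnmb and Mmp12 was 0.83, between Mmp12 and Atp6v0d2 0.81, between Lgals3 and Atp6v0d2 0.79 and between Mmp12 and Itgax 0.77. Trem2 and Lipa joined these 5 genes at 0.38 to 0.68. Cd9 had rho values of -0.25 to 0.17 with the other members, and Spp1 of -0.07 to 0.41. Fabp5 was between them, from -0.23 with Cd9 to 0.58 with Lipa. Within males (n = 12) pairs of the 5 genes, Trem2 and Lipa ran from 0.41 (Gpnmb and Lipa) to 0.97 (Gpnmb and Atp6v0d2). Within females (n = 12) the same pairs ran from -0.03 (Gpnmb and Itgax) to 0.64 (Mmp12 and Atp6v0d2), with Gpnmb and Atp6v0d2 at 0.46. After group means were removed they ran from -0.03 (Trem2 and Itgax) to 0.74 (Gpnmb and Mmp12) over the 24 libraries. The 24 libraries include the groups compared above and share their differences in diet, sex and macrophage content, so these values describe the same pattern and carry no p. With the mean of the 7 macrophage genes, Mmp12 had a rho of 0.82, Atp6v0d2 and Gpnmb 0.72, and Cd9, Fabp5 and Spp1 0.02, 0.05 and 0.15.

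**Figure D5:**
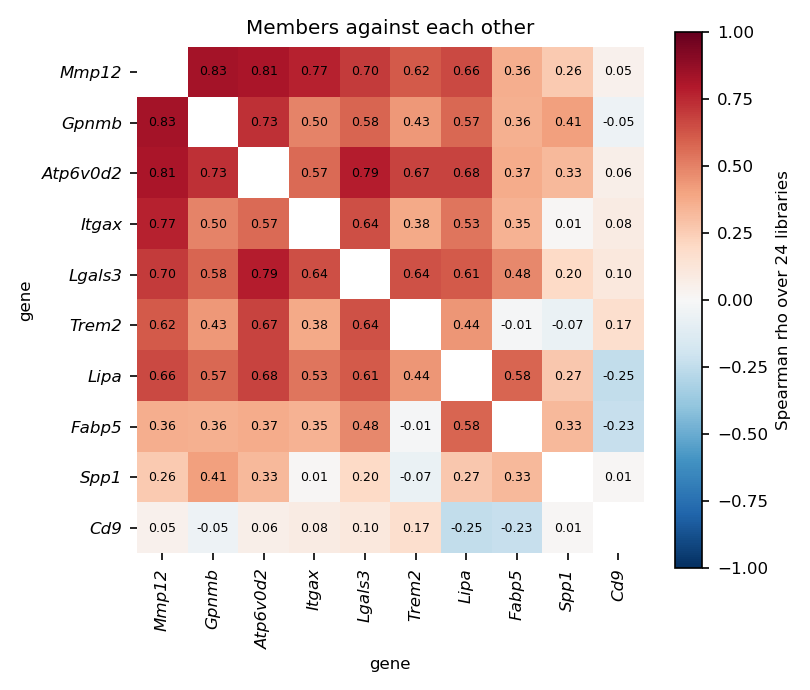
Spearman rho between each pair of members over 24 libraries, from blue (negative) through white to red (positive). Mmp12, Gpnmb, Atp6v0d2, Itgax, Lgals3, Trem2 and Lipa form a block of values from 0.38 to 0.83, and Cd9 lies between -0.25 and 0.17.

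The genes outside the set most like the mean standardized level of the members were, of 15612 ranked by Spearman rho over 24 libraries, Gla (0.91), Cpt1a (0.91), Cotl1 (0.89), Ear2 (0.88), Gm12854 (0.88), Anxa1 (0.88), Zdhhc9 (0.88) and Aldh3b1 (0.87), where the median gene had -0.02 and the 95th percentile was 0.67. Gla encodes a lysosomal galactosidase and had 92.3 to 112 scaled reads in CTRL LF males and 121 to 159.9 in CTRL HF males. Cpt1a, the carnitine transferase of mitochondrial fatty acid entry, had 923 to 1182 and 1592 to 1829.8 in these groups, and 455 to 989.9 and 1585 to 2142 in VDD LF and VDD HF males. Ear2, an eosinophil-associated ribonuclease, had 76.5 to 222 and 317 to 446 in CTRL males and its highest value, 938, in a VDD HF female. After group means were removed, the rho of these 8 genes ran from 0.28 for Anxa1 to 0.72 for Zdhhc9.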

How the data were processed

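RNA-seq was analysed in 24 libraries of mouse retroperitoneal fat, 3 mice in each of 8 groups taken from the labels. According to the methods and the submitters' processing notes, the authors aligned reads to mm10 with STAR (2.7.0d), counted them per gene with featureCounts (1.6.1) and normalized with DESeq2. The deposited values are log2 of reads divided by a size factor plus 1, in 8 tables of 6 libraries. Whole reads could be recovered for 100% of values (within 0.02), and were identical between tables that share a library. They were scaled over all 24 libraries by median of ratios (17314 genes with reads in every library), which gives the scaled reads.

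Each of the 8 comparisons was fitted with limma (3.58.1, R 4.3.3, trend and moderated variance) on its own table, keeping genes that reached 10 normalized reads in 3 or more libraries, and sex and interaction contrasts were fitted on all 24 libraries. A call needed a Benjamini-Hochberg adjusted p under 0.01 over all genes tested together with a fold change above 1.5 or under 0.66. The fits were tested on simulated data. The authors' own fold changes, standard errors, test statistics and p-values stand in the same tables and were not used. At the same adjusted p threshold, the paper reported more differentially expressed genes than limma called in each of the 8 comparisons. The cause of that difference was not tested. The libraries were stranded, but no strand setting is given for the counting, so reads of a gene and an antisense neighbour cannot be told apart. The members and gene lists were chosen with earlier results of these data known, and named genes are the members, the 8 genes most like their mean level, and from each list at most 3 genes with the largest differences besides those that define the cell type. Python (3.11.15), pandas (2.3.3) and scipy (1.17.1) made the summaries. Alternatives were no filter, a pseudocount of 10, upper-quartile scaling, limma-voom on the recovered reads, 1 fit over 24 libraries, and leaving out libraries.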

Additional observations from a re-analysis of the deposited data

How the results depend on the processing

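Of the values that answer a comparison, 385 kept their direction and stayed within the replicate spread or within 1.5 times the count under the alternatives run, 14 moved and 3 changed sign. Among 1125 values of single members in the 8 deposited comparisons and between the sexes under HF, 15 lost a call, 6 gained one and 4 moved by more than the replicate spread, and 47, over 24 pairs of a member and a comparison, had the opposite sign to the value reported, 45 of them without a call or a move beyond the replicate spread. Leaving out 1 library at a time, the median log2 fold change of the members ran from 0.71 to 1.08 for CTRL LF vs. CTRL HF males, from 1.49 to 2.21 for VDD LF vs. VDD HF males, from -0.35 to 0.31 for VDD LF vs. VDD HF females, from 0.16 to 0.56 for CTRL HF vs. VDD HF males, from -0.59 to 0.35 for CTRL HF vs. VDD HF females (positive without VDD HF female 2083) and from -0.52 to 0.27 for the maternal by offspring diet interaction in females (negative without VDD HF female 2081, and -0.57 also without VDD LF female 2303). The count of members called ran from 0 to 2 for VDD males and from 2 to 6 between the sexes under HF. In VDD males it was 1 with no filter, 1 with a pseudocount of 10 and 4 in a fit over all 24 libraries. Without the libraries named renal it was 1 in CTRL males and 0 between the sexes under HF, and the VDD male median was 1.47. Between the sexes under HF it was 6 without 2303 and 2081 together and 1 without the 3 muscle-rich male libraries, alternatives chosen after seeing the data. Cd9 between the sexes under HF ran from -0.012 (without VDD HF female 2121) to 0.24 with 1 library left out, and was -0.00404 without the libraries named renal. The cause of these shifts was not tested. Where leaving out a library left 2 samples in a group, the spread was pooled over the other libraries of the fit. Low read numbers limited Mmp12 in females, down to 3 reads in a library. No paired analysis was possible because the table columns carry mouse numbers and not the replicate numbers of the labels.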
